A study of Mus musculus with 4 samples.

Results

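A set of 7 Wnt ligand genes and 3 R-spondin genes of the embryonic forebrain, Wnt7a, Wnt7b, Wnt5a, Wnt8b, Wnt3a, Wnt2b, Wnt3, Rspo1, Rspo2 and Rspo3, was followed in brain RNA-seq of Wt1_CKO and Wt1_flfl mouse embryos. The genes were chosen by name. All 10 were listed in both deposited tables, which share 19500 genes, and all 10 passed the filter on low counts that left 15933 genes for testing. Wt1_CKO samples carry a conditional knockout of Wt1, a zinc finger transcription factor gene, and Wt1_flfl samples, labelled as wild type, carry the floxed alleles. Both groups are on a C57BL/6 background and were taken at embryonic day 13, with 2 samples each. Not given in the sources used here are the Cre line, the cells in which it acts, the part of the brain taken and any pooling of embryos. The study asked how Wt1 acts on proliferation and differentiation of neural progenitors.

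Wnt proteins are secreted, lipid-modified ligands. They bind Frizzled receptors together with Lrp5 or Lrp6 to stabilise beta-catenin, or with Ror and Ryk receptors to signal without it. R-spondins bind Lgr receptors and the ubiquitin ligases Znrf3 and Rnf43, which otherwise remove Frizzled receptors, and so make cells more sensitive to Wnt ligands. In the embryonic forebrain several Wnt genes mark the cortical hem, a signalling centre at the medial edge of the cortex that induces the hippocampus, whereas Wnt7a and Wnt7b are broadly used by progenitors and young neurons.

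The 4 libraries held 16219310 to 17704698 counts each. Markers of forebrain regions were present in all libraries, with summed levels of 1650 to 2496 CPM for 8 dorsal cortex genes and 1113 to 1841 CPM for 8 ventral telencephalon genes. CPM here are counts scaled to 1000000 counts of a library, with library sizes adjusted by edgeR's TMM factors. Of 8 midbrain and hindbrain markers 4 were listed in either table, with sums of 0.498 to 0.935 CPM, so the defining genes of these regions were at or near 0 in libraries labelled brain. Ribosomal RNA was 0.0268% to 0.0451% of the counts in Wt1_CKO and 0.0184% to 0.458% in Wt1_flfl, with the highest share in Wt1_flfl replicate 1. Separate embryos are not stated for the replicates. The p-values fitted here weigh a difference against the spread among these libraries alone, estimated in part across genes. That spread may be technical. The authors' deposited p-values, given further below, compare 1 library with 1 library.

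Compared per length, as CPM per kb of exon, the Wnt7 genes dominated the Wnt ligands. Wnt7b averaged 38.2 ± 3.85 and Wnt7a 17.99 ± 2.54 CPM per kb (SD over 4 libraries), and together they made up 91.9% and 91.8% of the summed level of the 7 Wnt genes in the Wt1_CKO libraries and 92.6% and 89.1% in the Wt1_flfl libraries. Rspo3 was the R-spondin with the highest mean level, at 4.97 ± 1.32 CPM per kb. The ranges of Wnt7b, Wnt7a and Rspo3 over the libraries did not touch those of the next gene in the order. Below them followed Rspo1 with 2.07 ± 0.626, Wnt5a with 1.91 ± 0.0865 and Wnt8b with 1.73 ± 0.990 CPM per kb. Wnt3 averaged 1.06 ± 0.349, Rspo2 0.758 ± 0.341, Wnt2b 0.410 ± 0.106 and Wnt3a 0.236 ± 0.137 CPM per kb. From Rspo1 downwards every neighbour in this order overlapped the next over the 4 libraries, so neighbouring ranks there are not separated beyond their spread. Genes farther apart in the order could be separate, as Wnt5a (lowest library 1.84) and Wnt3 (highest library 1.37) were. The means were taken over both genotypes.

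**Figure D1:**
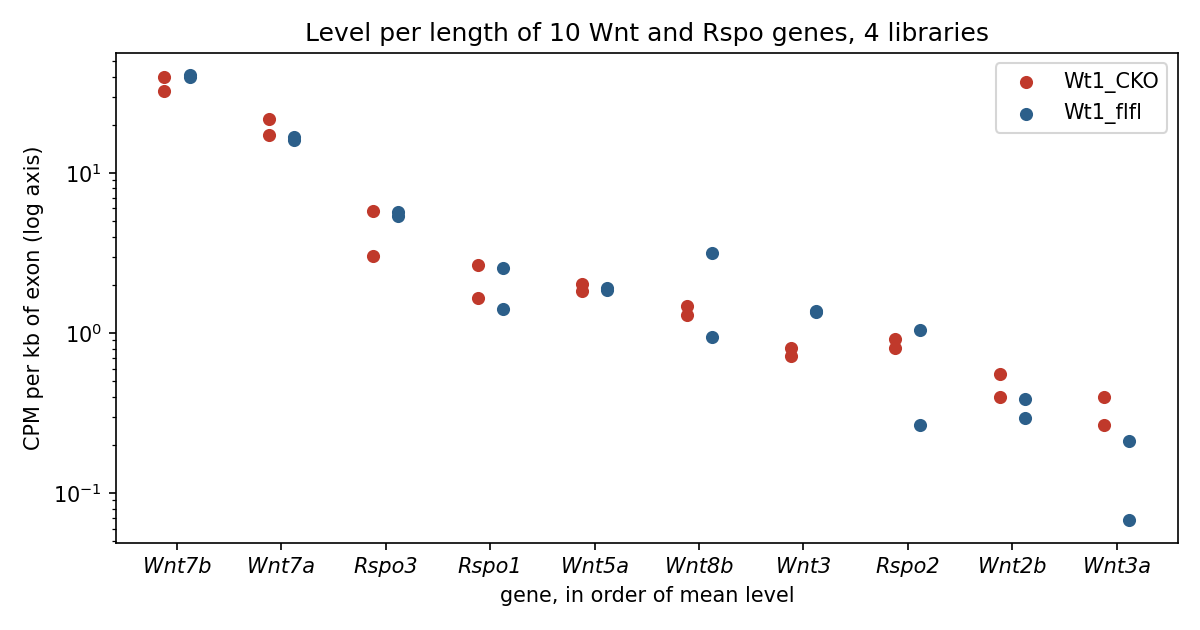
Level per length of each gene in CPM per kb of exon (log axis), with 2 points for Wt1_CKO and 2 for Wt1_flfl libraries per gene. Wnt7b, Wnt7a and Rspo3 stand clear of the genes after them, and from Rspo1 at 2.07 to Wnt3a at 0.236 CPM per kb neighbouring genes overlap.

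None of the 10 genes passed edgeR's quasi-likelihood test between Wt1_CKO and Wt1_flfl brain. The test called 1 of 15933 genes, or 0.00628%, at a Benjamini-Hochberg adjusted p of 0.05, and every one of the 10 had an edgeR adjusted p of 1. None of the 10 passed with DESeq2 either, which called 0.0256% of genes, nor without Wt1_CKO replicate 1 (0.0181% of genes called), Wt1_CKO replicate 2 (0.0421%), Wt1_flfl replicate 1 (0.439%) or Wt1_flfl replicate 2 (0.175%). At an unadjusted edgeR p under 0.05 stood 1 of the 10 genes, Wnt3, against 1.56% of all genes. That share of all genes is below the 0.05 that evenly spread p-values would give. With 2 libraries per group, not passing does not show that a gene is unchanged. Both Wt1_CKO libraries lay above both Wt1_flfl libraries for 3 genes, Wnt3a, Wnt7a and Wnt2b, and below both for 2, Wnt3 and Wnt7b. Among all tested genes the groups were apart in this way for 26.9%, with 13.4% above and 13.5% below. The median log2 fold change of the 10 genes was 0.085, beside 0.007 for all tested genes. In bulk brain RNA fewer cells of a type and less RNA per cell cannot be told apart.

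**Figure D2:**
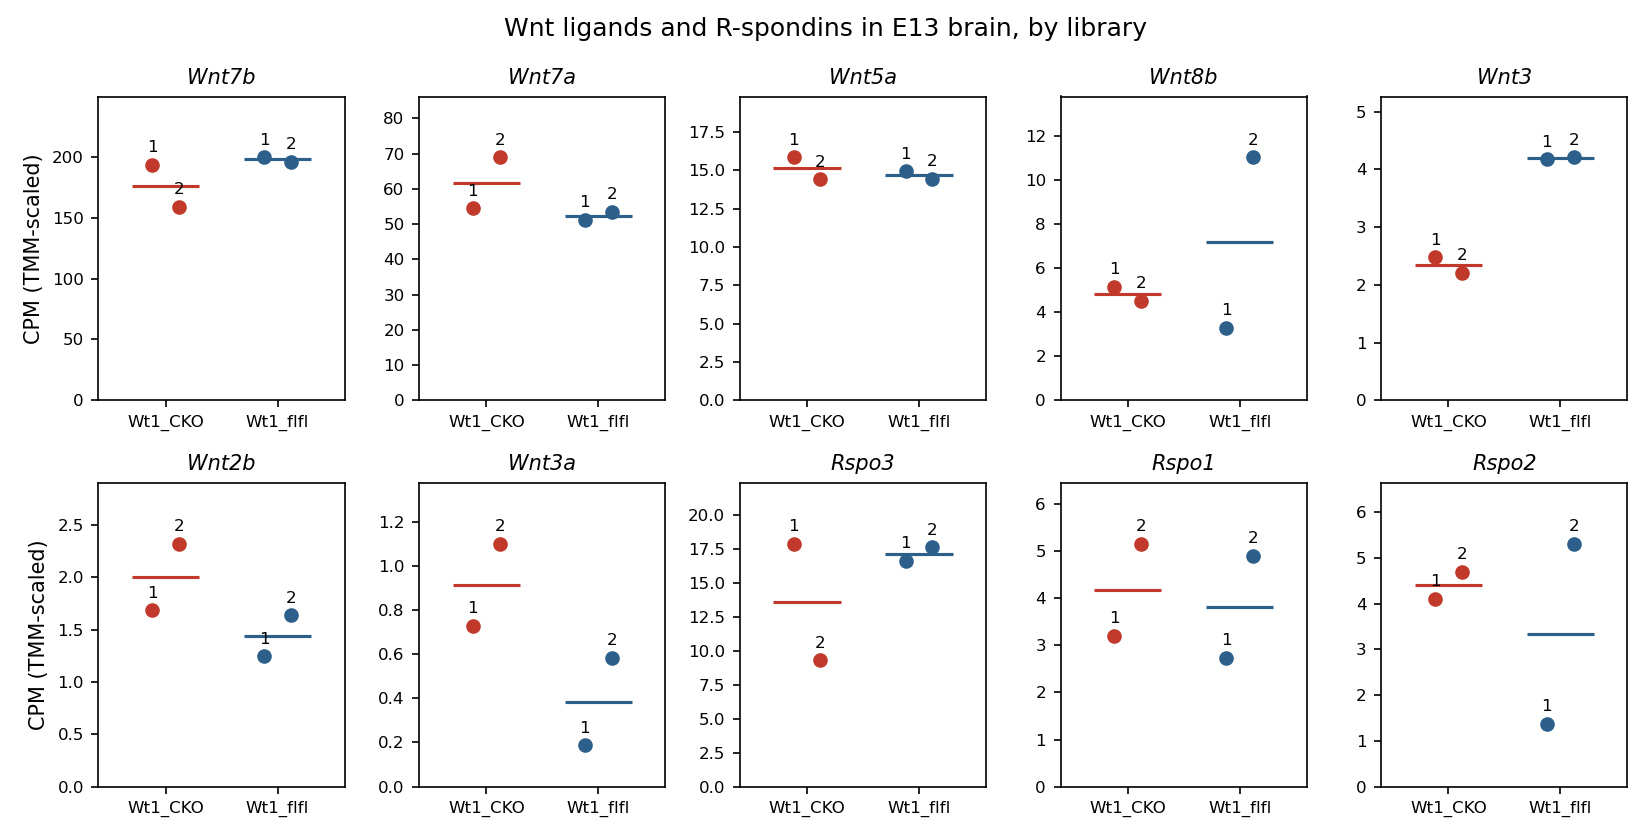
CPM (TMM-scaled, axes from 0) of each gene in the Wt1_CKO and Wt1_flfl libraries, numbered by replicate, with a line at the mean of each pair. Wnt3 is lower in both Wt1_CKO libraries (2.47 and 2.21 CPM, against 4.17 and 4.21 CPM in Wt1_flfl), while Wnt8b and Rspo2 spread widely within Wt1_flfl.

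Wnt3 showed the clearest separation of the genotypes. This canonical ligand is made in the embryonic thalamus, among other places, and its gene (ENSMUSG00000000125) lies at chr11:103774150-103817957 on the plus strand of GRCm38. It had 44 and 38 counts in Wt1_CKO replicates 1 and 2, against 67 and 72 counts in Wt1_flfl replicates 1 and 2. The level was 2.34 ± 0.189 CPM in Wt1_CKO and 4.19 ± 0.0252 CPM in Wt1_flfl brain (SD, n = 2 each). The ratio was 0.593 between the replicate 1 libraries (95% counting interval 0.396 to 0.880) and 0.524 between the replicate 2 libraries (0.344 to 0.787). The log2 fold change was -0.84 with a standard error of 0.287 and a 95% interval from -1.52 to -0.15, at an unadjusted edgeR p of 0.0238 and an adjusted p of 1. Leaving out any 1 library left the log2 fold change between -0.92 and -0.76.

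The summed thalamic markers were also lower in Wt1_CKO, though none of the 8 genes passed the edgeR test on all 4 libraries. For 1 of them, Tcf7l2, the call depended on the setting, as given with the transducer genes. The summed level of 8 thalamus genes was 108 and 124 CPM in Wt1_CKO and 193 and 174 CPM in Wt1_flfl, with none of the 8 at 0 in any library. These 8 genes include Lef1 and Tcf7l2 of the Wnt pathway. Of the 8, 5 were lower in both Wt1_CKO libraries than in both Wt1_flfl libraries, and none was higher. Among all tested genes 13.5% were lower in this way. The list was chosen with earlier results of these data known, so its share is a description and no test. The median log2 fold change of the 8 genes was -0.66. Olig3, a bHLH factor of thalamic progenitors, had 21 and 18 counts in Wt1_CKO and 182 and 157 in Wt1_flfl. Shox2, a homeobox gene of the thalamus and habenula, had 11 and 3 counts in Wt1_CKO and 137 and 76 in Wt1_flfl. For Gbx2, Lhx9 and Prox1 the groups overlapped. Gbx2 had 64 and 101 counts in Wt1_CKO and 163 and 100 in Wt1_flfl. Lhx9 had 693 and 728 counts in Wt1_CKO and 824 and 693 in Wt1_flfl. Prox1 had 530 and 642 counts in Wt1_CKO and 441 and 926 in Wt1_flfl. Whether the amount of thalamic tissue in the samples plays a part in the Wnt3 difference was not tested.

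Promoter sequence is given for 4 genes, Wnt3 with the smallest p, its relative Wnt3a with the opposite direction, Wnt7a as an abundant ligand and Wnt8b as the Wnt gene with the largest ratio within Wt1_flfl. Each line is the 250 bases before the RefSeq transcript start (GRCm38.p6), 5′ to 3′ on the gene's strand, at chr11:103773925-103774174 (plus) for Wnt3, chr11:59290752-59291001 (minus) for Wnt3a, chr6:91411354-91411603 (minus) for Wnt7a and chr19:44493222-44493471 (plus) for Wnt8b. Capitals mark the letters CCAAT and GCGGGGGCG, or their complement where the match is on the other strand.
Wnt3: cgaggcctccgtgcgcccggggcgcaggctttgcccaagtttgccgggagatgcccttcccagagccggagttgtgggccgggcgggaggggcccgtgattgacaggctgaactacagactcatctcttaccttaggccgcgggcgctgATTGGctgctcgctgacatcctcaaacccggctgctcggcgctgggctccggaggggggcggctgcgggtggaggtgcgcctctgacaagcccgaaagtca
Wnt3a: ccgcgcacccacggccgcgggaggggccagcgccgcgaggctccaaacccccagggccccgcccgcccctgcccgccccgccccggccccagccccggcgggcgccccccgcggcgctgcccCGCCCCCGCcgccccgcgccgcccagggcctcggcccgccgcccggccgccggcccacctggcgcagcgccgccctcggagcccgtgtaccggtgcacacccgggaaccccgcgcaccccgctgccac
Wnt7a: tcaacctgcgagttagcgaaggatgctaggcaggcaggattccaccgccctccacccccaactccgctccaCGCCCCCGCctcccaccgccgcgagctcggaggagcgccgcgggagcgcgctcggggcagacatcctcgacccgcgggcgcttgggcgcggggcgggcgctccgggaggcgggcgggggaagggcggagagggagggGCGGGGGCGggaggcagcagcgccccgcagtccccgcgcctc
Wnt8b: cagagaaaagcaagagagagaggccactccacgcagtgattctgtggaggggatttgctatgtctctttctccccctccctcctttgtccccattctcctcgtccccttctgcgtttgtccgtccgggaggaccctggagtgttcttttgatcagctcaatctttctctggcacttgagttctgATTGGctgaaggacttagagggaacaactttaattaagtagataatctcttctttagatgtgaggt
CCAAT is a common promoter element, and GCGGGGGCG is a zinc finger recognition sequence first known for Egr1 that Wt1 protein can also bind in vitro. RefSeq promoter sequences were at hand for 6 of the 10 genes. GCGGGGGCG occurred in 2 of these, at positions -179 and -42 of Wnt7a and -128 of Wnt3a, counted for the first marked base with -1 just before the transcript start, and in 2.57% of 32851 promoters of the same length. CCAAT occurred in 3, at -101 of Wnt3, -66 of Wnt8b and -64 of Wnt2b, and in 33.8% of promoters. GCGTGGGAG, a sequence selected by Wt1 protein in vitro, was in 0.405% of promoters and in none of the 6 windows on either strand. For TCF/LEF factors the searched letters were CTTTGAA and CTTTGAT, together with CTTTGTA as well as CTTTGTT, in 14.8% of promoters and in none of the 6 windows. The marked letters did not overlap one another. The 250 bases were 68.0% G and C for Wnt3, 87.6% for Wnt3a, 77.6% for Wnt7a and 48.4% for Wnt8b, beside a median of 52.4% over all promoters. Such matches describe the sequence and not a bound site.

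Wnt7b and Wnt7a, ligands of neural progenitors and neurons that also direct growth of brain vessels through Reck and Adgra2, differed little between the genotypes. Wnt7b (ENSMUSG00000022382, chr15:85535439-85581821, minus strand) had 194 and 159 CPM in Wt1_CKO replicates 1 and 2, against 199.6 and 196 CPM in Wt1_flfl. Both Wt1_CKO libraries were lower, and replicate 2 accounted for most of the distance. The means were 176 ± 24.5 CPM in Wt1_CKO and 198 ± 2.52 CPM in Wt1_flfl (SD, n = 2 each), at -0.17 on the log2 fold change scale, with an interval from -0.48 to 0.14. Exons of Wnt7b overlap the antisense gene AU022754, which had 66 and 53 counts in Wt1_CKO and 29 and 59 in Wt1_flfl, and without stated strand reads of the overlap cannot be assigned.

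Wnt7a (ENSMUSG00000030093, chr6:91363981-91411363, minus strand) had 54.6 and 69.0 CPM in Wt1_CKO, against 51.2 and 53.5 CPM in Wt1_flfl. Both Wt1_CKO libraries were higher, again with the larger gap in replicate 2. For Wnt7a the log2 fold change was 0.24 with an interval from -0.10 to 0.58. Per length, the ratio of Wnt7b to Wnt7a was 2.3 and 1.49 in Wt1_CKO replicates 1 and 2 and 2.52 and 2.37 in Wt1_flfl, lowest in Wt1_CKO replicate 2. For both genes the interval leaves out a change of 2-fold in either direction.

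Wnt5a (ENSMUSG00000021994, chr14:28504750-28527448, plus strand), a ligand best known for signalling without beta-catenin, was the steadiest of the 10. It had 15.9 and 14.4 CPM in Wt1_CKO and 14.9 and 14.4 CPM in Wt1_flfl, a ratio of 1.1 between the highest and the lowest library. The groups overlapped. A log2 fold change of 0.04 was found, with an interval from -0.37 to 0.45, and its sign turned to -0.03 without Wt1_CKO replicate 1. Exons of Wnt5a overlap the antisense gene Gm2670, which held 14 and 7 counts in Wt1_CKO and 1 and 2 in Wt1_flfl, few beside the 240 to 282 counts of Wnt5a.

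Wnt8b, Wnt3a and Wnt2b, which are made in the cortical hem among other places, averaged 1.73, 0.236 and 0.410 CPM per kb. Wnt8b (ENSMUSG00000036961, chr19:44493472-44514273, plus strand), which also marks the hypothalamus, had 92 and 78 counts in Wt1_CKO and 53 and 189 in Wt1_flfl. The 2 Wt1_flfl libraries enclosed both Wt1_CKO libraries. Within Wt1_flfl, replicate 2 was 3.35 times replicate 1 (95% counting interval 2.46 to 4.63), whereas within Wt1_CKO the same ratio was 0.876 (0.639 to 1.20). The log2 fold change of -0.57 had an interval from -1.81 to 0.68, and was 0.555 without Wt1_flfl replicate 2 and -1.18 without Wt1_flfl replicate 1, at edgeR adjusted p of 1 and 0.200.

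Hypothalamic markers were highest in the library with the most Wnt8b. Their summed level, over 8 genes, was 175 and 299 CPM in Wt1_CKO and 193 and 496.5 CPM in Wt1_flfl. Nkx2-1, also 1 of the 8 ventral telencephalon genes, made up most of this sum in every library. It had 103 and 191 CPM in Wt1_CKO and 105 and 270 CPM in Wt1_flfl. Otp, a homeobox gene of hypothalamic neurons, had 204 and 279 counts in Wt1_CKO and 96 and 1438 in Wt1_flfl. Nkx2-4 and Rax, further hypothalamic genes, both had 0 counts in the second Wt1_CKO library, against 69 and 23 in the second Wt1_flfl library, and were not listed for replicate 1. The part of hypothalamic tissue in the Wnt8b values was not tested.

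Wnt3a (ENSMUSG00000009900, chr11:59248033-59290752, minus strand), the hem ligand needed for hippocampal growth, had the fewest reads. It had 13 and 19 counts in Wt1_CKO and 3 and 10 in Wt1_flfl, or 0.917 ± 0.264 and 0.386 ± 0.281 CPM (SD, n = 2 each). Both Wt1_CKO libraries were above both Wt1_flfl libraries, by 3 counts between the nearest. The ratio was 3.91 in replicate 1 (95% counting interval 1.07 to 21.4) and 1.89 in replicate 2 (0.835 to 4.55). The log2 fold change was 1.22 with an interval from -0.37 to 2.81, and it ran from 0.643 without Wt1_flfl replicate 1 to 2.25 without Wt1_flfl replicate 2.

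Wnt2b (ENSMUSG00000027840, chr3:104945272-104961921, minus strand), another canonical ligand of the hem, had 30 and 40 counts in Wt1_CKO and 20 and 28 in Wt1_flfl. Both Wt1_CKO libraries were higher, with ratios of 1.35 (0.744 to 2.52) and 1.42 (0.854 to 2.39) whose counting intervals include no change. Wnt2b had a log2 fold change of 0.47 with an interval from -0.47 to 1.41.

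The 3 R-spondins overlapped between the genotypes. Rspo3 (ENSMUSG00000019880, chr10:29452416-29535867, minus strand) had 17.9 and 9.29 CPM in Wt1_CKO and 16.6 and 17.6 CPM in Wt1_flfl. Wt1_CKO replicate 2 was the low library, at 0.520 times Wt1_CKO replicate 1 (95% counting interval 0.427 to 0.631), and the other 3 were alike. Rspo3 held 45.6% of the summed R-spondin level per length in that library, against 70.2% in Wt1_CKO replicate 1 and 76.2% and 61.4% in Wt1_flfl. For Rspo3 the log2 fold change was -0.33 with an interval from -1.06 to 0.40, and 0.064 without Wt1_CKO replicate 2.

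Rspo2 (ENSMUSG00000051920, chr15:43020811-43170818, minus strand) had 73 and 81 counts in Wt1_CKO and 22 and 91 in Wt1_flfl. Here Wt1_flfl replicate 1 stood apart below the other 3, with replicate 2 at 3.88 times its level (95% counting interval 2.42 to 6.5). For Rspo2 the log2 fold change was 0.39 with an interval from -0.96 to 1.74. Its value was -0.271 without Wt1_flfl replicate 1 and 1.68 without Wt1_flfl replicate 2.

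Rspo1 (ENSMUSG00000028871, chr4:124986430-125009099, plus strand) followed the replicate number. It had 57 and 89 counts in Wt1_CKO and 44 and 84 counts in Wt1_flfl. Replicate 2 was 1.61 times replicate 1 within Wt1_CKO (1.14 to 2.29) and 1.79 times within Wt1_flfl (1.23 to 2.64). Between the genotypes the log2 fold change was 0.13 with an interval from -0.81 to 1.07. Leaving out Wt1_CKO replicate 2 gave -0.256, and leaving out Wt1_flfl replicate 1 gave -0.229. Rspo1 was not alone in following the replicate number. The 8 erythroid genes summed to 884 and 1741 CPM in Wt1_CKO and 914 and 1787 CPM in Wt1_flfl. Neurod6 went the other way, with 762 and 364 CPM in Wt1_CKO and 601 and 306 CPM in Wt1_flfl. The 8 microglia genes were even, at 29.5 and 28.5 CPM and 29.6 and 28.8 CPM. The cause of the replicate differences was not tested.

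**Figure D3:**
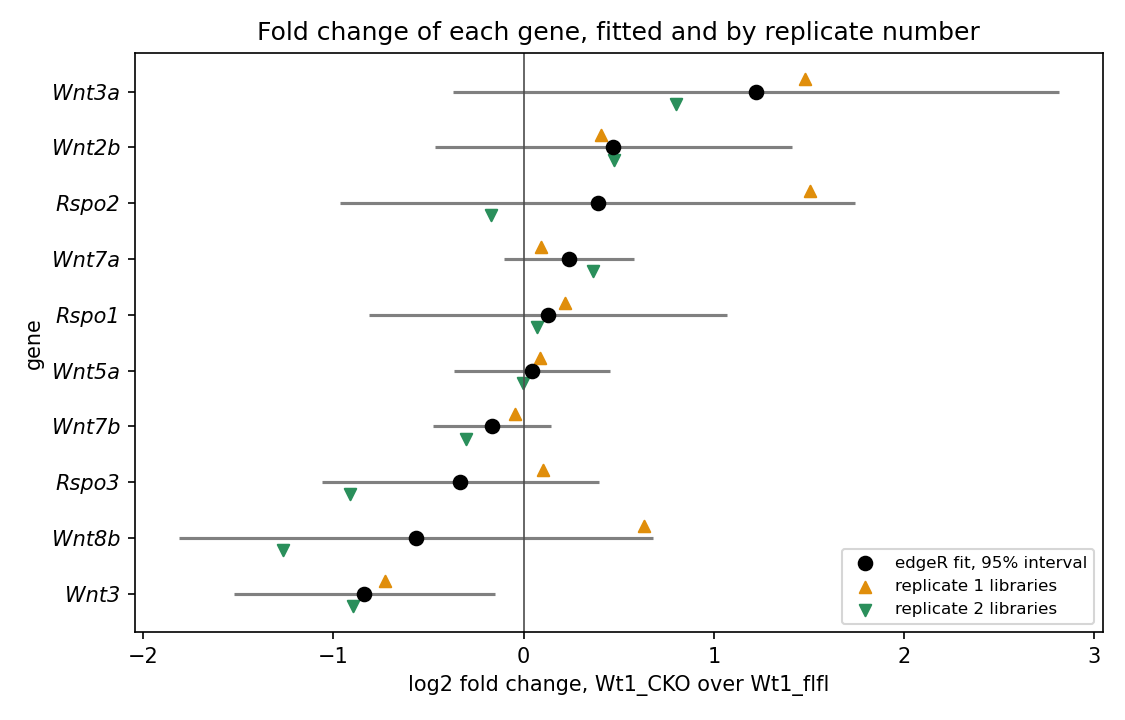
Log2 fold change of each gene, Wt1_CKO over Wt1_flfl, from edgeR (dot, with 95% interval) and from the replicate 1 and replicate 2 libraries alone (triangles, log2 CPM with a prior count of 2). The Wnt3 interval, from -1.52 to -0.15, is the one that leaves out 0, at an adjusted p of 1, and the triangles of Wnt8b (0.63 and -1.26), Rspo2 (1.505 and -0.17) and Rspo3 (0.10 and -0.91) lie on opposite sides of 0.

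Other regional markers differed between libraries beside these genes. The cortical hem list without Rspo3, 7 genes, summed to 25.1 and 19.1 CPM in Wt1_CKO and 16.6 and 26.9 CPM in Wt1_flfl. Of these, Msx2 and Gdf7 were not listed for replicate 1, and the replicate 2 libraries held 15 and 5 counts of them in Wt1_CKO, against 3 and 8 in Wt1_flfl. Dkk3 made up most of the hem sum in every library, with 256 and 206 counts in Wt1_CKO and 160 and 328 in Wt1_flfl. Smaller parts of it spread more widely. Lmx1a had 44 and 25 counts in Wt1_CKO and 10 and 36 in Wt1_flfl, and Msx1 38 and 10 against 3 and 18. Bmp7 had 107 and 57 counts in Wt1_CKO and 92 and 58 in Wt1_flfl, so its low values were those of replicate 2. The 8 choroid plexus genes summed to 61.5 and 27.1 CPM in Wt1_CKO and 23.4 and 49.3 CPM in Wt1_flfl. Within this sum, Ttr had 40.3 and 0.987 CPM in Wt1_CKO and 0.249 and 12.4 CPM in Wt1_flfl. Otx2 had 15.8 and 24.0 CPM in Wt1_CKO and 22.4 and 31.4 CPM in Wt1_flfl. Otx2 made up most of the sum in every library except Wt1_CKO replicate 1. The 8 meninges genes summed to 34.1 and 31.5 CPM in Wt1_CKO and 33.6 and 64.7 CPM in Wt1_flfl. The lowest hem and choroid plexus sums were those of Wt1_flfl replicate 1. That library also had the lowest CPM of Rspo1, Rspo2, Wnt2b, Wnt3a, Wnt7a and Wnt8b. The part of these tissues in the values of the Wnt and Rspo genes was not tested.

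**Figure D4:**
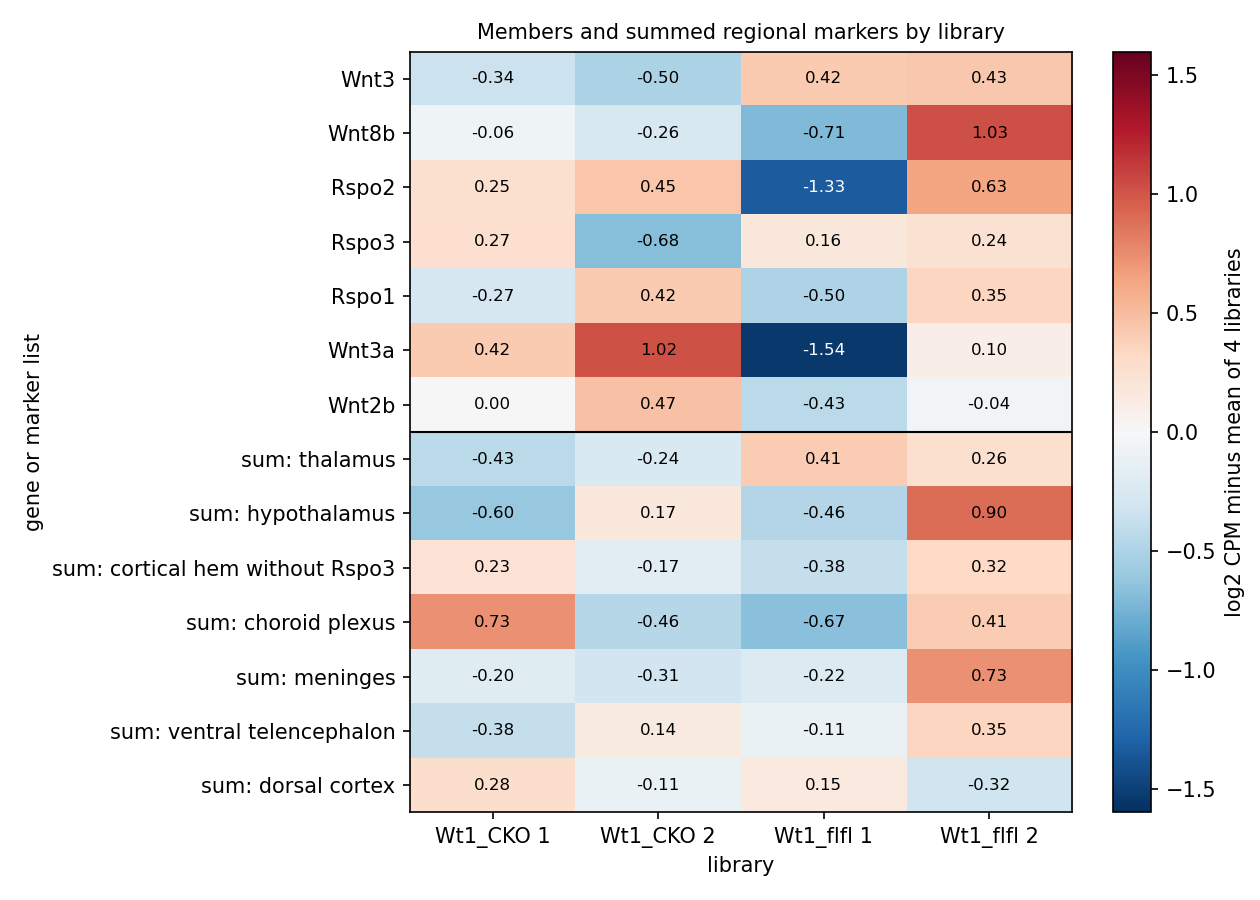
Log2 CPM of 7 genes and of summed regional marker lists in each library, minus the mean over the 4 libraries (colour scale and printed value). Wnt3 and the thalamus sum are both below 0 in the Wt1_CKO and above 0 in the Wt1_flfl libraries, and Wnt8b and the hypothalamus sum are both highest in Wt1_flfl replicate 2 (1.03 and 0.90).

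For the 4 genes with the widest range over the libraries, the genes with the most similar profile were sought by Euclidean distance of centred log2 CPM over 4 libraries, with 5 CPM as the lowest mean level searched. Nearest to Rspo3 were Gdf10 at 0.138, the Wnt inhibitor gene Apcdd1 at 0.159 and Lrrtm2 at 0.177. Nearest to Wnt8b were Onecut2 at 0.187, Gm42047 at 0.358 and Gdpd2 at 0.365. Nearest to Rspo2 were Tmem181b-ps at 0.197, Gm4737 at 0.336 and Cgn at 0.363, and nearest to Wnt3a were Gm37608 at 0.290, Gm43980 at 0.472 and Dynlt1b at 0.491. Each search covered 11505 or 11506 genes and only 4 libraries, so the distances are a description with no test.

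The authors' deposited tables, which compare 1 library with 1 library, mark 3 of the 10 genes in one pair each and none in both. The authors' deposited table for replicate 1 marks Rspo2 and Wnt3a as higher in Wt1_CKO, at fold ratios of 3.04 and 3.97, where it marks 3.2% of all its genes. The authors' deposited table for replicate 2 marks Wnt8b as lower, at a fold ratio of 0.413, where it marks 3.19%. Wnt3 carries no mark, with the authors' deposited fold ratios at 0.602 and 0.528 and adjusted p at 0.0278 and 0.00707. For replicate 2, Wnt7b, Rspo3 and Wnt7a carry no mark either, at the authors' deposited fold ratios of 0.817, 0.532 and 1.30. Their deposited adjusted p are smaller than that of Wnt3, at 1.45e-13, 1.07e-09 and 6.03e-08. These p-values compare single libraries and not the genotypes.

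The rest of the pathway was described by role, with lists whose members overlap in part. Of 97 pathway genes, 91 were listed in either table and 80 were tested, and none passed in either direction, against the 0.00628% called among all genes. Their median log2 fold change was 0.002. An unadjusted p under 0.05 was found for 1 gene higher and 3 genes lower in Wt1_CKO, where 1.56% of all genes had one.

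Among the other ligands 3 of 13 genes were tested, and none passed. Wnt5b, a relative of Wnt5a, had 4.95 and 6.45 CPM in Wt1_CKO and 5.17 and 6.43 CPM in Wt1_flfl. Wnt4 had 1.34 ± 0.171 and Wnt9a 0.915 ± 0.102 CPM in Wt1_CKO, against 1.02 ± 0.381 and 1.04 ± 0.507 CPM in Wt1_flfl (SD, n = 2 each). Wnt1, of the midbrain, had 2 and 2 counts in Wt1_CKO and 3 and 1 in Wt1_flfl. The secretion genes, with 11 of 12 tested, had log2 fold changes from -0.52 for the glypican Gpc3 to 0.22 for the glypican Gpc6. Tmed2, of the p24 cargo proteins, had 66.9 CPM in Wt1_CKO replicate 1 and 116 to 122 CPM in the other 3 libraries.

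Among the receptors, 10 Frizzled genes and 12 of 13 coreceptor and R-spondin receptor genes were tested, and none passed. Fzd10 had 1.45 ± 0.249 CPM in Wt1_CKO and 4.75 ± 0.640 CPM in Wt1_flfl (SD, n = 2 each), at -1.70 on the log2 fold change scale and an unadjusted edgeR p of 0.00138. Fzd5 had 3.43 and 5.87 CPM in Wt1_CKO and 4.05 and 10.3 CPM in Wt1_flfl, and Fzd1 61.9 ± 0.635 and 56.2 ± 4.70 CPM. Fzd10, Fzd5 and Fzd1 all encode Wnt receptors of the Frizzled family. The ubiquitin ligases that R-spondins act on lay higher in both Wt1_CKO libraries, Rnf43 with 1.05 ± 0.178 against 0.510 ± 0.105 CPM in Wt1_flfl and Znrf3 with 13.1 ± 0.341 against 10.7 ± 0.118 CPM. Ror2, a receptor for Wnt5a, had 14.5 ± 0.981 CPM in Wt1_CKO and 10.8 ± 2.49 CPM in Wt1_flfl. In the coreceptor list 6 genes lay above and 0 below in both Wt1_CKO libraries, beside 13.4% and 13.5% of all genes, and the median log2 fold change was 0.106.

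Of 18 inhibitor genes 14 were tested and none passed. Dkk2 had 0.766 ± 0.427 CPM in Wt1_CKO and 1.57 ± 0.0149 CPM in Wt1_flfl, Sfrp2 26.3 ± 3.56 and 30.5 ± 5.28 CPM, and Kremen1 20.5 ± 2.37 and 24.0 ± 4.85 CPM (SD, n = 2 each). All 21 transducer genes were tested and none passed. Tcf7l2, the TCF factor of the thalamus, had 21.0 ± 3.59 CPM in Wt1_CKO and 54.4 ± 14.9 CPM in Wt1_flfl. Its log2 fold change was -1.37 (SE 0.223) at an unadjusted edgeR p of 0.000569, and it is also one of the 8 thalamus markers. Tcf7l2 passed without Wt1_flfl replicate 1, without Wt1_flfl replicate 2 and with DESeq2, at adjusted p of 0.0284, 3.03e-05 and 6.4e-05. It did not pass without Wt1_CKO replicate 1 (edgeR adjusted p 0.884), without Wt1_CKO replicate 2 (0.211) or with limma-voom (1). Ctnnb1, which encodes beta-catenin, had 789 ± 7.65 CPM in Wt1_CKO and 719 ± 18.8 CPM in Wt1_flfl, and Lef1 11.98 ± 1.26 and 13.8 ± 1.26 CPM.

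Of 18 genes known as Wnt targets, 15 were tested and none passed, with 3 above and 3 below in both Wt1_CKO libraries, beside 13.4% and 13.5% of all genes, and a median log2 fold change of -0.066. Nkd1, a feedback inhibitor, had 40.6 ± 3.59 CPM in Wt1_CKO and 53.8 ± 1.31 CPM in Wt1_flfl, at a log2 fold change of -0.41 (unadjusted edgeR p 0.0136). Tnfrsf19, a receptor gene induced by beta-catenin, had 62.1 ± 17.1 CPM in Wt1_CKO and 41.9 ± 9.85 CPM in Wt1_flfl, at a log2 fold change of 0.57 (unadjusted edgeR p 0.0458). Values of the targets lay on both sides of 0.

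**Figure D5:**
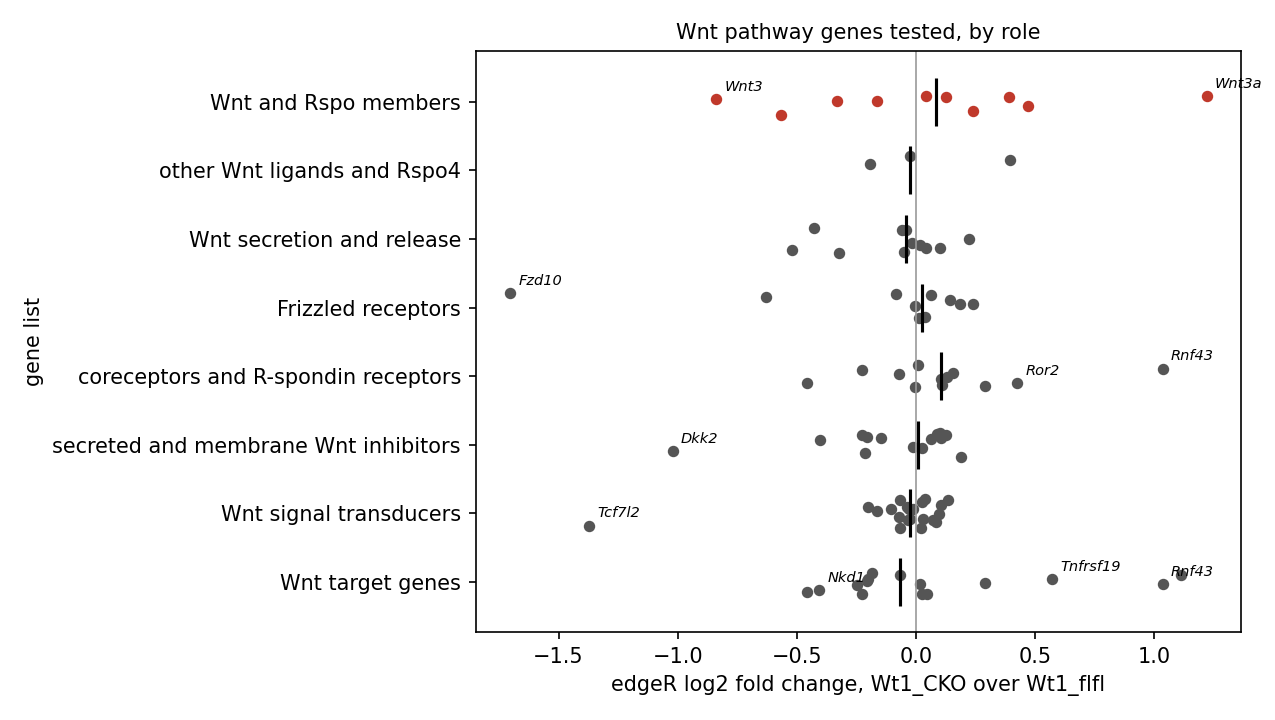
EdgeR log2 fold change, Wt1_CKO over Wt1_flfl, of each tested Wnt pathway gene by role (dots, with the median as a vertical line). List medians lie between -0.066 for targets and 0.106 for coreceptors, and Fzd10 (-1.70) and Tcf7l2 (-1.37) lie farthest below 0.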

How the data were processed

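Oligo(dT)-enriched RNA of 2 Wt1_CKO and 2 Wt1_flfl samples was copied with random primers, per the labels' protocols, which do not state strand. HTSeq 0.6.0, TopHat2 2.0.12 and Bowtie2 2.2.3 are listed in the submitters' processing notes, as is build mm9. Gene coordinates in the deposited tables nevertheless equalled GENCODE vM21 (GRCm38) for 20590 of 22368 gene IDs found there. Per the file headers, the authors deposited counts per Ensembl gene for 2 same-numbered libraries per table. The authors' deposited CPM columns, fold ratio, log2 fold change, p-values and adjusted p-values compare those 2 libraries, and the sources used here do not name the test. Genes absent from a table are called not listed.

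For genes in both tables, the deposited counts were fitted with edgeR 4.0.16 (R 4.3.3; quasi-likelihood test), after filterByExpr with a minimum count of 10, TMM scaling and Benjamini-Hochberg adjustment (threshold 0.05). The script was tested on simulated data. Standard errors are those implied by edgeR's F statistic, and 95% intervals use its degrees of freedom. Ratios of libraries have exact (Clopper-Pearson) intervals from scipy 1.17.1, which cover counting error only. Exon lengths are from GENCODE vM21. Of the other pathway genes, the 3 tested genes with the smallest p per list are named, and marker genes, Wnt1 and overlapping genes were named after their values were seen. Members and lists were chosen with earlier results of these data known. The Wt1 transcript is not reported here. Alternatives were a replicate block, leaving out each library, other scaling, filters, DESeq2 1.42.0, limma-voom 3.58.1 and genes of either table.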

Additional observations from a re-analysis of the deposited data

How the results depend on the processing

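No Wnt or Rspo gene of the set passed under any of the 11 alternatives to edgeR's test, and the 69 values of these 10 genes from alternatives that kept all libraries kept their direction. Leaving out each library turned the direction in 6 of 40 values, with log2 fold changes from -0.029 to 0.111 for Wnt5a, -0.256 to 0.609 for Rspo1, -0.271 to 1.68 for Rspo2, -0.881 to 0.064 for Rspo3 and -1.18 to 0.555 for Wnt8b. Among other named genes it turned Wnt5b (-0.229 to 0.151), Wnt9a (-0.611 to 0.414), Tmed2 (-0.823 to 0.046) and Fzd5 (-1.15 to 0.198). Genes called numbered 3 and 7 when Wt1_CKO replicate 1 or 2 was left out, and 73 and 29 when Wt1_flfl replicate 1 or 2 was left out, against 1 with all libraries, and the cause was not tested. Pathway genes called numbered 0 to 1 in those fits. DESeq2 called 5 genes, of them 1 pathway gene. A fit without 1 library leaves a group with a lone sample, assumed to vary like the other group. With the replicate number as a block, edgeR called 42 genes, of them 3 pathway genes (Tcf7l2, Fzd10 and Tnfrsf19), and the adjusted p of Wnt3 was 0.466. No label says that a number marks a shared litter or day. The differences of replicate 2 and replicate 1 in the 2 genotypes had a Pearson correlation of 0.281 across 15933 genes, which are not independent replicates. Wnt3a, with 3 to 19 counts per library, was left out by the stricter filter.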
